A study of Homo sapiens with 4 samples.

Results

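The clustered protocadherin genes are the protein-coding genes on human chromosome 5 whose RefSeq symbols begin with PCDHA, PCDHB or PCDHG. There were 53 of them among 19974 protein-coding genes on chromosomes 1 to 22 and X: 15 in the alpha cluster, 16 in the beta cluster and 22 in the gamma cluster. Together they span 727 kb (hg38, chr5:140786140-141512975). Chromatin immunoprecipitation and sequencing (ChIP-seq) was done with an HA antibody in untreated cells labelled wild type, a subclone of the established line MDA-MB-231 (triple-negative breast cancer). Per the labels, the target was PD-L1, a ligand of the T-cell receptor PD-1, with 2 ChIP samples and an input for each. The sources used here do not say how the HA tag entered the cells. No precipitation without the tagged protein was analysed here, and recovery of chromatin without the target cannot be told apart from binding.

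Protocadherins are cell adhesion proteins of the cadherin superfamily, best known in the nervous system, where each neuron displays its own combination of clustered isoforms and bears a surface identity by which it tells its own branches from those of other cells. Each alpha or gamma gene has its own promoter and a large first exon, called the variable exon, that encodes the extracellular cadherin repeats, the membrane span and a short tail. This exon is spliced to constant exons at the end of the cluster, which all members of that cluster share. Beta genes consist of 1 large exon and have no constant part. The last genes of the alpha and gamma clusters, named C-type (PCDHAC1, PCDHAC2, PCDHGC3, PCDHGC4 and PCDHGC5), are expressed more evenly among neurons than the alternate members. Many of the promoters carry a conserved element around the letters CGCT, near sites bound by CTCF, and the choice of promoter is tied to CTCF, cohesin and DNA methylation.

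The upstream sequences that the results turn on are those of the members with a peak edge in the 250 bp before the start. PCDHGA6, a gamma A gene whose peak in both replicates began just after the start, is added for comparison. Sequences are from RefSeq (GRCh38.p14, plus strand), 5′ to 3′, ending at the base before the annotated start, and capitals mark the bases inside a replicate 1 peak. No replicate 2 peak reached into these 4 stretches. The windows are chr5:141349849-141350098 for PCDHGB1, chr5:141369992-141370241 for PCDHGB3, chr5:141373641-141373890 for PCDHGA6 and chr5:141402528-141402777 for PCDHGA9.
PCDHGB1: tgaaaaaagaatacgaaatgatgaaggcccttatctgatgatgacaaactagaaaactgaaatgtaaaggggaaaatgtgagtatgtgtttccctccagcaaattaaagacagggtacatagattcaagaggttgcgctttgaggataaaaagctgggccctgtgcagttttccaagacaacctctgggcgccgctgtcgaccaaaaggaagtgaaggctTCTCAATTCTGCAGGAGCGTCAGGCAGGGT
PCDHGB3: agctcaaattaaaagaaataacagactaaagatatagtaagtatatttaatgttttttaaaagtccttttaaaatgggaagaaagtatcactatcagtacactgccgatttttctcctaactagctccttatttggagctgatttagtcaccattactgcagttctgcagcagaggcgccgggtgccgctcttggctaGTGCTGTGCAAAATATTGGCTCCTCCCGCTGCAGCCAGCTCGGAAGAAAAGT
PCDHGA6: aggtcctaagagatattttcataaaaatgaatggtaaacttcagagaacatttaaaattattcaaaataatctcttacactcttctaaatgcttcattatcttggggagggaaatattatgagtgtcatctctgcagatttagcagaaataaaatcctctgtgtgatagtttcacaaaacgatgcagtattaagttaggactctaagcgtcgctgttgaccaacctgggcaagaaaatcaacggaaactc
PCDHGA9: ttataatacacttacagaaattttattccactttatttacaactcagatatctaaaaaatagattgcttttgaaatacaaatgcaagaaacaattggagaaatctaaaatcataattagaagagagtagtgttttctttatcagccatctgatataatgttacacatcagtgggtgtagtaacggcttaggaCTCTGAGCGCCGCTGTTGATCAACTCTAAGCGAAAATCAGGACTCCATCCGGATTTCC
The peak reached 30 bp upstream of the start of PCDHGB1, 52 bp at PCDHGB3 and 58 bp at PCDHGA9, so most of each printed stretch lay outside the peak. PCDHGB1 has a second annotated upstream stretch, not printed, at chr5:141350011-141350260 with 52.8% GC. Of its 250 bp, 192 lay inside the replicate 1 peak. The counts by GC used the printed stretch of PCDHGB1. GC made up 44.8%, 40.8%, 34.8% and 34% of the 4 stretches, in the order printed.

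The letters CGCT, read on the strand of the transcript, occurred in the 250 bp upstream of 45 of the 47 members with an entry in the promoter table. They occurred in 57.5% of 15812 protein-coding promoters of the same length. Counted on both strands, the members' number was 45 too, against 75.8% of all promoters. The 30 bases around the match nearest to the start are printed for a few members of each cluster, chosen after seeing them as examples of runs that several members share, with the match in capitals.
PCDHA1: ggccacatgatgtCGCTgtacaccacaaag
PCDHA2: agccacatgatgtCGCTgtccaccatagag
PCDHA6: agccgcatgatgtCGCTgtctaccatgaag
PCDHA8: agccacatgatgtCGCTgtctaccaagaag
PCDHB3: gaacgcatggtggCGCTgttgactaagaag
PCDHB13: ggacgcgtggtggCGCTgcaggataagaag
PCDHB15: caacgcatggtggCGCTgcaggctaaggct
PCDHGA2: ggcctctgagcgtCGCTgttgaccacctaa
PCDHGA6: ggactctaagcgtCGCTgttgaccaacctg
PCDHGA9: ggactctgagcgcCGCTgttgatcaactct
In the 4 alpha genes the letters stood 38 to 55 bp before the start and followed a similar run, and the 3 beta genes shared another one. The 3 gamma A genes shared yet another, and the gamma B genes PCDHGB1 and PCDHGB2 had similar letters there. Not all members carried such a run at the nearest match: PCDHA7, PCDHAC1, PCDHB2 and PCDHGC4 were among those with other letters around it. None of the 47 upstream stretches held the core motif of CTCF that was searched on both strands, which was found in 0.0443% of all promoters, and TATAAA (both strands) stood in 6 of 47, against 9.36% of all promoters. A match is a description of letters, and no match says only that these letters were not in the window. The CTCF motif was searched as a long, nearly exact run of letters, which stood in 7 of the 15812 promoters. A run this rare is unlikely to occur in 47 stretches, so its absence cannot show whether CTCF sites are missing there. The promoter table had no entry for PCDHA3, PCDHA13, PCDHB6, PCDHB11, PCDHGA12 and PCDHGC5.

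Peaks were sparser over the protocadherin genes than in their flanks, which held several times more. Over chromosomes 1 to 22 and X, the list of replicate 1 had 166548 peaks at a median fold enrichment of 3.14 over the caller's background, and that of replicate 2 had 93591 at 2.27. In both lists most peaks lay near the lower limit of significance, with a lowest −log10 q of 1.3 and medians of 1.91 and 1.8. Over the 727 kb there were 27 peaks in replicate 1 and 12 in replicate 2, which is 37.1 and 16.5 per Mb. The 500 kb on each side together held 150 and 73 peaks, or 150 and 73 per Mb. Shared regions, which are unions of peaks that overlap by at least 1 bp and hold a peak of each replicate, numbered 6 in the stretch (8.25 per Mb) and 41 in the flanks (41 per Mb), a ratio of 0.201. In peaks the ratio was 0.248 in replicate 1 and 0.226 in replicate 2, so both lists showed the same direction. Whether the lists are independent is unknown, because peak names of replicate 2 include "Merge". No test was made, because the peaks of 1 list are not replicates and the study has 1 ChIP group.

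Bases under peaks differed in the same direction. Peaks covered 3.44% of the stretch in replicate 1 and 1.07% in replicate 2, against 12.3% and 5.4% of the flanks. On the whole of chromosome 5, peaks covered 3.54% and 1.78% at 47.4 and 25.9 per Mb, so cover in the stretch was close to that of the chromosome in replicate 1 and below it in replicate 2. It is far denser in genes, with 75.7 protein-coding genes per Mb, counted by the lower-coordinate end, against 29 in the flanks and 4.98 on chromosome 5. Among 149 windows of the same length with at least 20 protein-coding genes counted in this way, taken over chromosomes 1 to 22 and X, the quartiles were 96.3 and 193 peaks per Mb in replicate 1 and 50.9 and 107 in replicate 2. The protocadherin stretch was below the lower quartile in both. Against all windows of this length with a protein-coding gene, it was not unusual. Their medians on chromosome 5 were 34.4 peaks per Mb in replicate 1, 20.6 in replicate 2 and 5.5 shared regions. Over chromosomes 1 to 22 and X they were 44, 24.8 and 6.88. The stretch had 37.1, 16.5 and 8.25. The flanks were also unlike each other: the left held 94 and 40 peaks per Mb in replicates 1 and 2, and the right held 206 and 106. Against the left flank alone the ratio for shared regions was 0.375, and against the right flank 0.138.

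**Figure D1:**
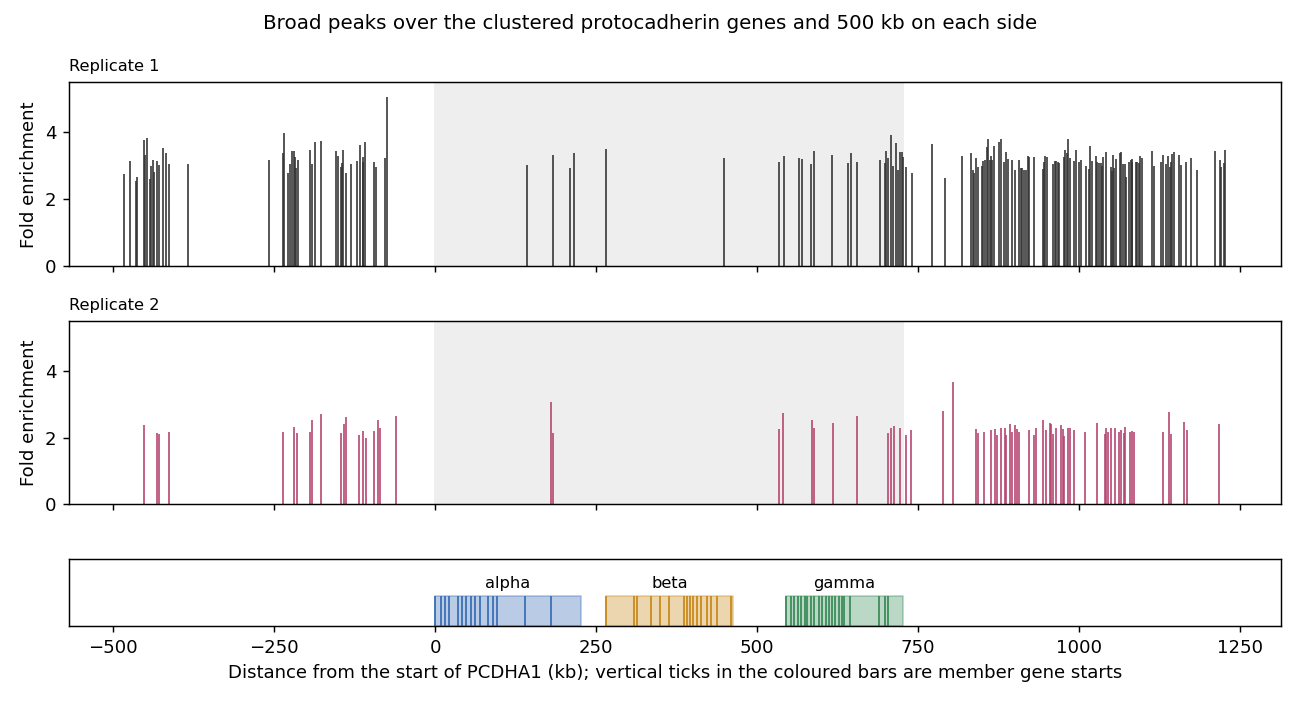
Fold enrichment of each broad peak (vertical axis) against the distance from the start of PCDHA1 in kb, for replicates 1 and 2, with the alpha, beta and gamma clusters and member starts below. The shaded stretch holds 27 and 12 peaks, most of them over the gamma cluster, and the flanks hold 150 and 73.

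The sparse cover was a property of the alpha and beta clusters more than of the gamma cluster. The alpha cluster (chr5:140786140-141012347) held 4 peaks in replicate 1 and 2 in replicate 2, or 17.7 and 8.84 per Mb. The beta cluster (chr5:141051374-141249365) held 2 peaks in replicate 1, or 10.1 per Mb, and none in replicate 2. The gamma cluster (chr5:141330514-141512975) held 19 and 8 peaks, or 104 and 43.8 per Mb, above the left flank and below the right one. Before PCDHGC3 it held 55 and 27.5 per Mb, below the left flank, and from PCDHGC3 on 297 and 108. The alpha cluster held none before PCDHAC1, and 46.5 and 23.2 per Mb from there on. Of the 6 shared regions, 1 lay in the alpha cluster, none in the beta cluster and 4 in the gamma cluster. The sixth lay between the beta and gamma clusters, over TAF7, which encodes a subunit of the general transcription factor TFIID (chr5:141320320-141320886, fold 3.12 in replicate 1 and 2.27 in replicate 2).

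**Figure D2:**
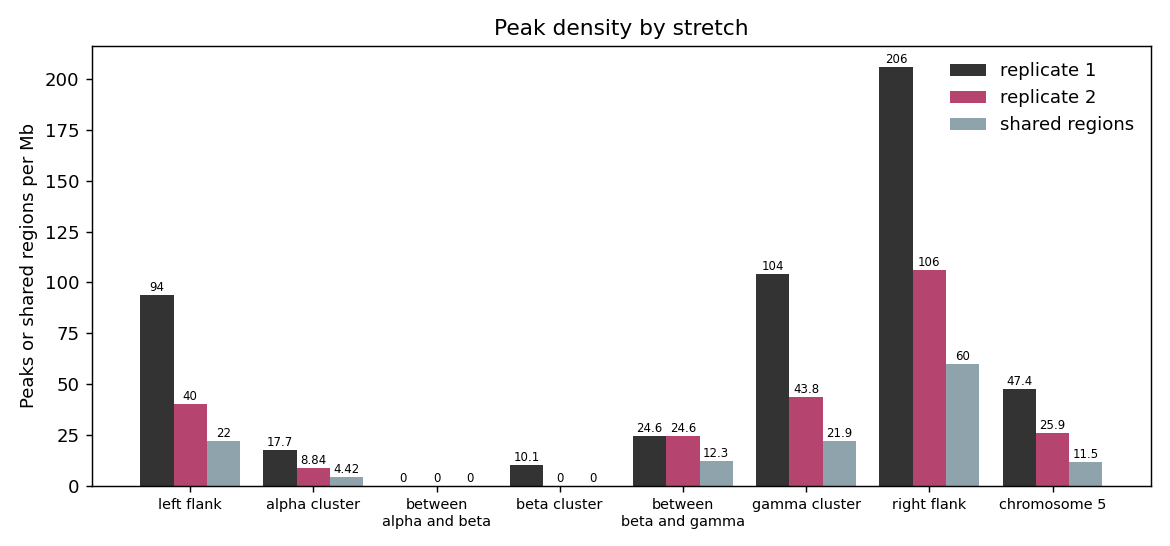
Peaks per Mb in replicate 1 and replicate 2 and shared regions per Mb (vertical axis) for the flanks, the 3 clusters, the stretches between them and chromosome 5, 1 bar per list. The beta cluster has 10.1, 0 and 0 per Mb, and the gamma cluster 104, 43.8 and 21.9.

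Peak-free stretches took up most of the alpha and beta clusters. The last peak before the alpha cluster ended 59922 bp from the start of PCDHA1. From there to within PCDHAC1, neither list held a peak for 201 kb (chr5:140726219-140927582), across the starts of the 13 alternate alpha genes PCDHA1 to PCDHA13 and of PCDHAC1. A second peak-free stretch of 182 kb (chr5:141052569-141234297) ran across the starts of 14 beta genes from PCDHB2 to PCDHB14. PCDHB15, the last beta gene, lay in another of 85.7 kb. The median peak-free gap on chromosome 5 was 4.15 kb. Of its 11111 gaps, 72 (0.648%) were longer than the alpha one and 91 (0.819%) longer than the beta one. These are shares of the number of gaps. Long gaps hold a larger share of the bases, which was not computed.

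**Figure D3:**
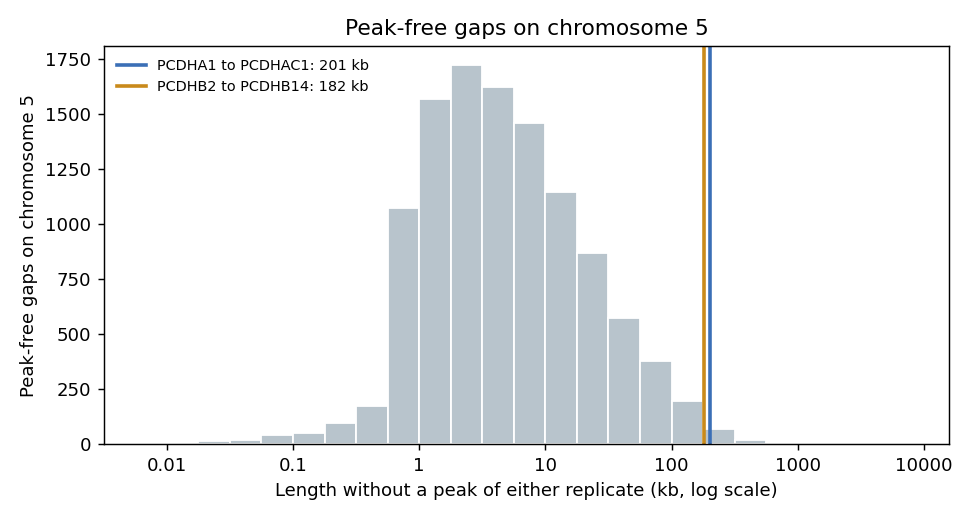
Number of gaps on chromosome 5 (vertical axis) by length without a peak of either replicate in kb (log scale), with the 2 longest gaps of the protocadherin stretch as lines. The lines at 201 and 182 kb lie in the upper tail of the bars.

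Read gene by gene, few starts carried a peak. Within 1 kb on either side of the start, 10 of the 53 members (18.9%) had a peak in replicate 1, against 64.7% of the 15819 protein-coding genes whose strand was known. In replicate 2 there were 3 (5.66%), against 26%, and 2 (3.77%) had a shared region, against 24.1%. Of the flank genes, 28 had a known strand and a start, by strand, inside the flanks. They had peaks at 25 of 28 starts in replicate 1, at 12 in replicate 2, and shared regions at 10. The alpha cluster had no start with a peak in replicate 1 and 1 of 15 in replicate 2, the beta cluster 1 of 16 and none, and the gamma cluster 9 of 22 and 2. The median distance from a member's start to the nearest peak was 12.4 kb in replicate 1 and 74.8 kb in replicate 2, against 0.151 and 6.06 kb for all protein-coding genes. It was 79.2 kb for alpha, 44.6 kb for beta and 4.42 kb for gamma genes in replicate 1.

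Upstream GC differed between the protocadherin genes and other genes. The 250 bp before the start had a median GC of 37.6% in the 47 members and 62% in all protein-coding genes. Across all genes, the median was 64.4% where replicate 1 had a peak in the start window and 55.2% where it had none. For replicate 2 the medians were 63.6% and 61.6%. Among starts with under 45% GC, a limit chosen after seeing the data, replicate 1 had a peak at 6 of 39 members (15.4%) and at 21.3% of the 2026 protein-coding genes. In replicate 2 the numbers were 1 of 39 (2.56%) and 8.74%, and for shared regions 1 of 39 (2.56%) and 5.08%. Among the 8 members at 45% or more, 2 had a peak in replicate 1 (25%), against 71.1%, and 1 in replicate 2 (12.5%), against 28.5%. None of the 8 had a shared region, against 26.9%. The members' share was below that of all genes on both sides of the limit in both replicates, but these counts are small. The upper side is also not matched for GC. Of its members, PCDHGB2, PCDHGB4, PCDHGB6 and PCDHGB7 had 45.6% to 48.8%, below the lower quartile of all genes (52.8%). The part of GC in the low counts was not tested. GC beyond these 250 bp was not analysed here. The members are close copies of each other, and the sources used here do not say how reads that match several copies were treated.

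**Figure D4:**
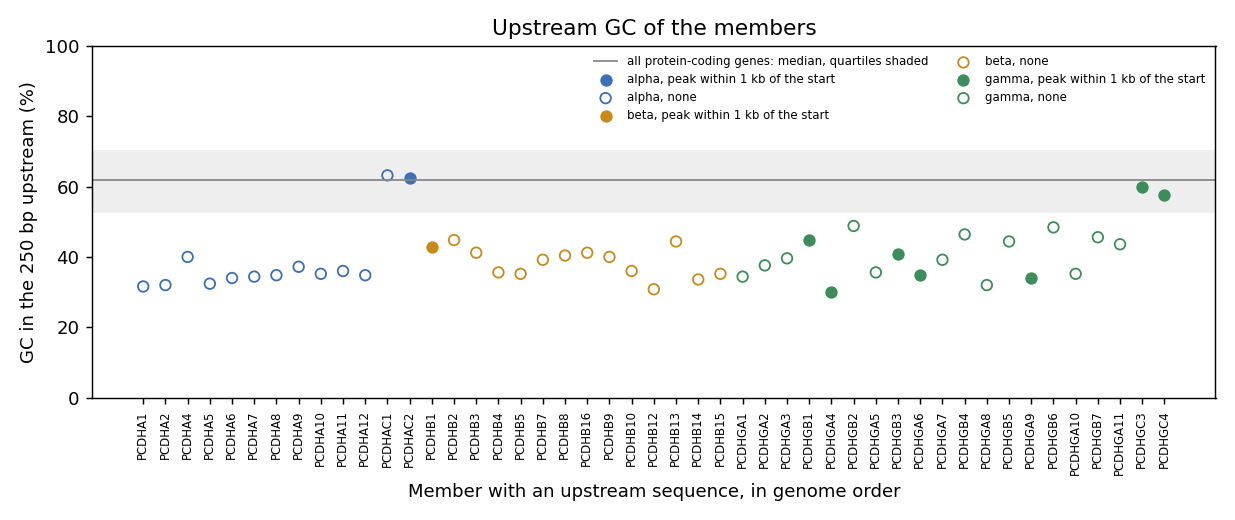
GC of the 250 bp upstream of the start in percent (vertical axis) for the 47 members with a promoter entry, in genome order, filled where a peak of either replicate lay within 1 kb of the start. The grey line and band are the median (62%) and quartiles (52.8% and 70%) of all protein-coding genes, and all but PCDHAC1, PCDHAC2, PCDHGC3 and PCDHGC4 lie below the band.

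In the alpha cluster, every peak lay at or after PCDHAC1. PCDHAC1, the first C-type alpha gene, had a replicate 1 peak 1284 to 2657 bp after its start (chr5:140927583-140928956, fold 3.04, −log10 q 1.64) and no replicate 2 peak there. PCDHAC2, the second C-type gene, had peaks of both replicates over the same part of the gene. The replicate 1 peak ran from 1481 to 2684 bp after the start (fold 3.32, −log10 q 2.14) and the replicate 2 peak from 2142 to 2704 bp (2.12 and 1.51), in a shared region at chr5:140967957-140969180. Replicate 2 also had a narrow peak of 233 bp that ended 277 bp before the start of PCDHAC2 (chr5:140965967-140966199), with the highest fold of that list in the stretch, 3.07, and a −log10 q of 2.90. Replicate 1 had no peak at that place. Further along, towards the shared end of the cluster, replicate 1 had 2 peaks of 198 and 192 bp (fold 2.94 and 3.38), and replicate 2 had none. Because the bodies of all alpha genes run to the same end, the body of each of the 15 contained the PCDHAC2 region, while between its own start and the next member's start only PCDHAC2 did.

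In the beta cluster, PCDHB1 was the sole gene with a peak at its start. PCDHB1 is the first beta gene and stands apart from the others, 43241 bp before PCDHB2. Its replicate 1 peak of 1033 bp ran from 162 to 1194 bp after the start (chr5:141051536-141052568), with a fold of 3.51 and a −log10 q of 2.33. This peak also overlapped the antisense gene PCDHB1-AS1. The other replicate 1 peak of the cluster overlapped the pseudogene PCDHB18P, between PCDHB14 and PCDHB15 (fold 3.24, −log10 q 1.97). The 15 other beta genes had no peak in the gene body in either replicate, and the nearest replicate 2 peak was 74.9 to 170 kb from a beta start.

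In the gamma cluster, peaks began close to the start of several genes. PCDHGA6 was the alternate gamma gene with peaks of both replicates at its start, and their edges nearly coincided. The replicate 1 peak ran from 55 to 1386 bp after the start with a fold of 3.46 and a −log10 q of 2.22, and the replicate 2 peak from 56 to 1362 bp with 2.28 and 1.56. This region (chr5:141373946-141375277) ranked 5917 of 45771 shared regions by the mean rank of fold in the replicates, the best of the 6 in the stretch. PCDHGB1 and PCDHGA4 had replicate 1 peaks only. Their peaks ran from −30 to 1497 bp around the start of PCDHGB1 (fold 3.23) and from 84 to 904 bp after that of PCDHGA4 (fold 3.21). PCDHGB3 and PCDHGA9 had peaks of both replicates that did not overlap. At PCDHGB3 the replicate 1 peak lay at −52 to 316 bp (fold 3.05) and the replicate 2 peak at 1456 to 2071 bp (2.53). At PCDHGA9 they lay at −58 to 125 bp (3.33) and at 1525 to 2438 bp (2.44). PCDHGA12, the last alternate gamma gene, had a replicate 1 peak 926 to 1263 bp after its start (3.38). The pseudogenes PCDHGB8P and PCDHGB9P held peaks too, and the one at PCDHGB9P was shared (chr5:141441395-141442424, fold 3.12 and 2.66).

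No peak of either replicate lay within 1 kb of the start of 13 gamma genes. They were PCDHGA1, PCDHGA2, PCDHGA3, PCDHGB2, PCDHGA5, PCDHGA7, PCDHGB4, PCDHGA8, PCDHGB5, PCDHGB6, PCDHGA10, PCDHGB7 and PCDHGA11. Along the cluster, starts without a peak fell in runs, from PCDHGA1 to PCDHGA3, PCDHGB2 to PCDHGA5, PCDHGA7 to PCDHGB5 and PCDHGB6 to PCDHGA11, and the starts from PCDHGA12 to PCDHGC5 all had one. Between its own start and the next member's start, a replicate 1 peak was found in 13 of 22 gamma genes, a replicate 2 peak in 5 and a shared region in 4. The shares of all protein-coding genes, cut at the gene end and at the next gene start on the same strand, were 78.2%, 60.7% and 49.1%. The shared regions were those of PCDHGA6, PCDHGA12, PCDHGC4 and PCDHGC5. That of PCDHGA12 is the one over PCDHGB9P. The region of PCDHGC4 is that over the start of PCDHGC5, which reaches back past it. Only its replicate 1 peak did so, and its replicate 2 peak lay within PCDHGC5.

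**Figure D5:**
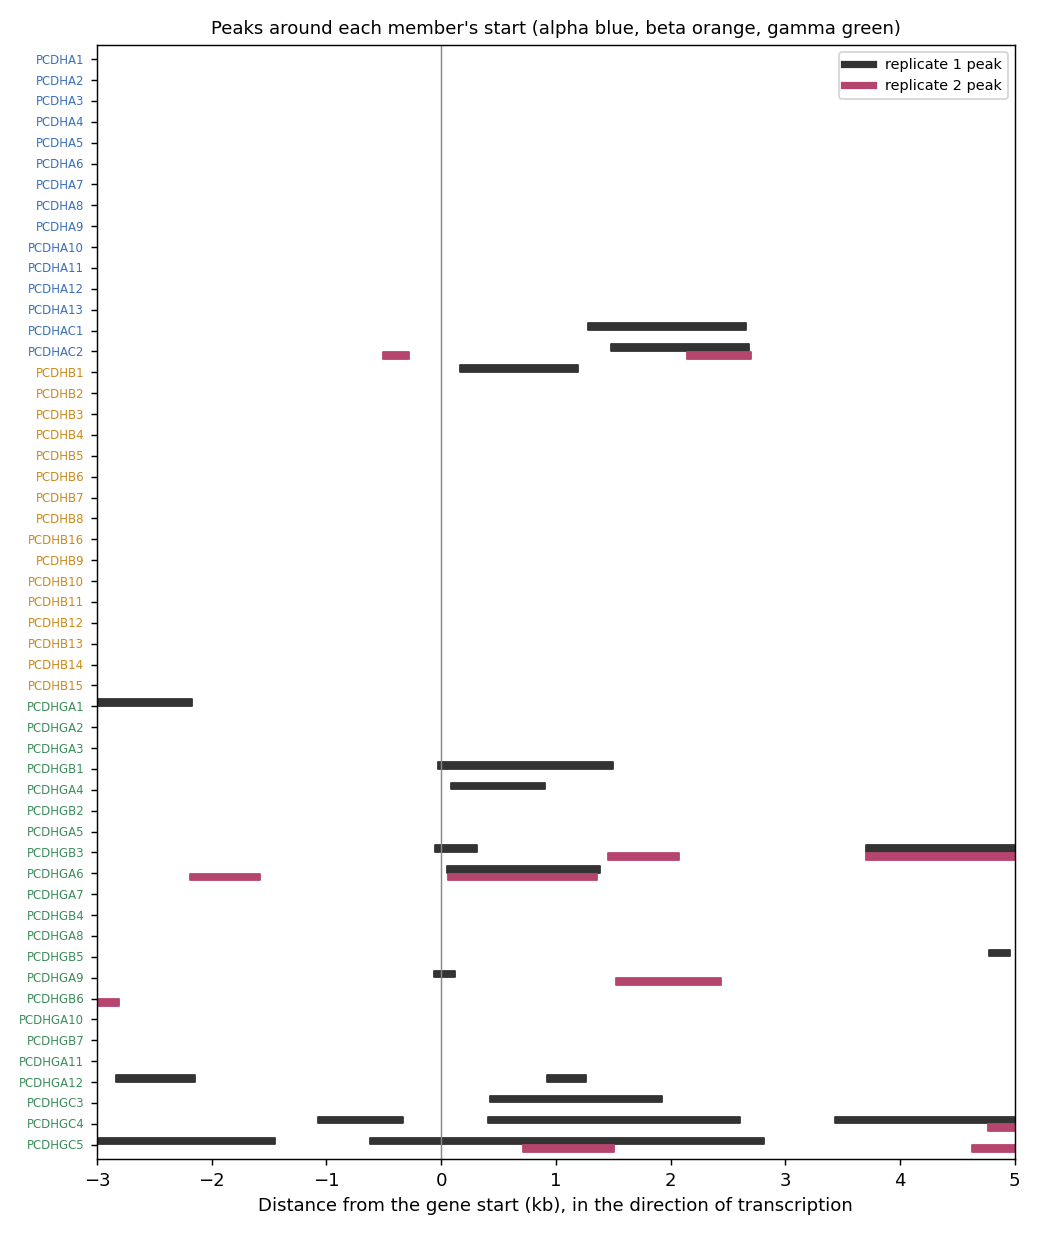
Peaks of replicate 1 (black) and replicate 2 (red) within 3 kb before and 5 kb after the start of each of the 53 members, in genome order (horizontal axis in kb from the start). Alpha rows are empty up to PCDHA13 and beta rows after PCDHB1, and at PCDHGA6 the bars of both replicates have nearly the same ends.

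Within the gamma cluster, peaks were denser from the first C-type gene to the end than before it. Exons were not mapped here. From the start of PCDHGC3 to the end of the cluster (37 kb), replicate 1 had 11 peaks that covered 36% of the bases, and replicate 2 had 4 that covered 6.67%. From PCDHGA1 to before PCDHGC3 (145 kb) there were 8 and 4 peaks, covering 4.02% and 2.66%. PCDHGC3, which is expressed in many tissues, had a replicate 1 peak of 1500 bp that began 430 bp after its start (fold 3.17). PCDHGC4 had one of 2197 bp that began 406 bp after (3.43). Another replicate 1 peak ended 333 bp before the start of PCDHGC4 (chr5:141483956-141484697, fold 3.09, −log10 q 1.74). PCDHGC5 had the widest peak of the stretch, 3435 bp from −616 to 2818 bp around its start (chr5:141488465-141491899), with a fold of 3.23 and a −log10 q of 1.87. A replicate 2 peak lay inside it, from 713 to 1509 bp after the start (2.13 and 1.64).

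Further into PCDHGC5, towards the end that all gamma genes share, replicate 1 had 7 more peaks and replicate 2 had 3. The replicate 1 peak at chr5:141494729-141494996 had the highest fold and −log10 q of that list in the stretch, 3.93 and 2.78, and overlapped no replicate 2 peak. A peak of replicate 2 ended before it at chr5:141493711-141494172 (2.30 and 1.73). One further region was shared, at chr5:141507491-141509145, with a fold of 3.41 in replicate 1 and 2.28 in replicate 2. The last replicate 1 peak (chr5:141512059-141514762, fold 3.27) crossed the end of the gamma cluster into the right flank. Peaks there belong to no single member, since each of the 22 gamma gene bodies contains these bases up to the cluster end.

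The C-type genes were also counted apart, with no test. Within the first 3 kb of the gene, a distance that takes in a variable exon and was chosen after seeing the data, replicate 1 had a peak in 5 of the 5 C-type genes and in 7 of the 48 others. For all protein-coding genes the share was 64.5%. In replicate 2 the counts were 2 of 5 and 3 of 48, against 28.6%, and for shared regions 2 of 5 and 1 of 48, against 26.2%. The upstream GC of the 4 C-type genes with an entry was 57.6% to 63.2%, close to the median of all genes, and that of the other members was lower, so C-type and GC cannot be told apart here. PCDHAC1, at 63.2%, was the C-type gene without a peak within 1 kb of its start.

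Peaks were found somewhat more often after a start than before it, as for all genes. In the 3 kb downstream of the start, 12 of 53 members had a replicate 1 peak and 5 a replicate 2 peak, and in the 3 kb upstream 7 and 3. For all protein-coding genes the shares were 64.5% downstream and 59.7% upstream in replicate 1, and 28.6% and 25.8% in replicate 2. In the gamma cluster the 3 kb upstream of 1 gene can reach into the gene before it.

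Over the own segment, from a member's start to the next member's start in its cluster, 17 members had a replicate 1 peak, 7 a replicate 2 peak and 5 a shared region. The other 36 had no peak of either replicate in it: 13 alpha, 14 beta and 9 gamma genes. At PCDHGC4 the shared region reached into the segment, but no replicate 2 peak did. Cut in the same way for all genes, at the gene end and at the next gene start on the same strand, 16, 7 and 5 of the 53 members had one, against 78.2%, 60.7% and 49.1% of all protein-coding genes. These lengths differ, with a median of 5069 bp in members and 24907 bp in all genes. By whole gene bodies, 38 of 53 members had a replicate 1 peak, against 78.4%, and 37 a replicate 2 peak, against 61.3%. A shared region was in 37, against 49.6%, all of them alpha or gamma genes that overlap each other at their common ends.

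The peaks that were called in the protocadherin stretch had fold enrichments within the range of the flanks. The median was 3.24 in replicate 1 (2.88 to 3.93), and 2.32 in replicate 2 (2.12 to 3.07). In the flanks it was 3.16 (2.53 to 5.07) and 2.23 (2 to 3.66). Of the 27 replicate 1 peaks, 6 (22.2%) overlapped a replicate 2 peak, and of the 12 replicate 2 peaks 6 (50%) overlapped replicate 1. The shares were 28.7% and 58.9% in the flanks and 28.7% and 52% over all chromosomes considered. With a −log10 q of at least 2, 12 and 3 peaks were left in the stretch and 58 and 16 in the flanks. No shared region was then left in the stretch and 1 in the flanks, so each shared region of the stretch had at least 1 peak with a −log10 q under 2.

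The right flank holds a pair of unclustered protocadherin genes, which have their own promoters and no shared exons. PCDH1 (chr5:141853090-141878410) had 9 peaks in replicate 1, 5 in replicate 2 and 3 shared regions in its body, the best of them with a fold of 3.22 and 2.21. PCDH12, an endothelial protocadherin (chr5:141943581-141958202), had 2, 2 and 1. The best-ranked shared region in a gene of the left flank was in TMCO6 (chr5:140609101-140609514, 3.74 and 2.69).

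Other genes tied to the clustered protocadherins were compared by the same window of 1 kb around the start. Of 10 unclustered protocadherins with a known strand, 5 had a replicate 1 peak, 1 a replicate 2 peak and none a shared region. Of 12 genes that regulate the clusters, 9, 2 and 3 had one, led by STAG2, a cohesin subunit (fold 3.47 and 2.96). The others with a shared region were CTCF (3.23 and 2.13) and DNMT3B, a DNA methyltransferase (3.21 and 2.13). At DNMT3B the shared region reached into the window, but no replicate 2 peak did. Of 10 partners and effectors, 7, 3 and 3 had one, led by CYFIP2 of the WAVE complex, which the cytoplasmic tails of protocadherins recruit (3.68 and 2.32). Of 5 classical cadherins listed, 2 were measured, CDH2 and CDH4. Both had a replicate 1 peak, and CDH4 a shared region (2.77 and 1.90) that ranked 45267 of 45771. The body of CDH4 held 159 replicate 1 peaks, 130 replicate 2 peaks and 92 shared regions. Against shares of 64.7%, 26% and 24.1% of all protein-coding genes for replicate 1, replicate 2 and shared regions, these small lists are given as counts only.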

How the data were processed

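HA ChIP-seq peaks of PD-L1 samples from MDA-MB-231 were taken from 2 deposited lists of broad peaks, 1 per replicate. The submitters' processing notes name Bowtie2 (version 2.2.9), MACS2 (version 2.1.1) and the build hg38 without saying what each was used for. Peaks were called per replicate over input, per the series' design text and the labels' titles; no source used here gives the thresholds. The deposited files hold a score per peak, not used, the authors' fold enrichment (a ratio) and the authors' −log10 p and −log10 q, by the layout of the broad peak format. Peak names of replicate 2 include "Merge", which no source used here explains, so whether the lists are independent is unknown. Reads were not used, so depth is unknown.

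Overlaps, coverage and shared regions were computed with Python 3.11.15 and pandas 2.3.3, after the functions were tested on simulated lists. Genes, starts and strand came from RefSeq tables of GRCh38.p14; 15819 of 19974 protein-coding genes had a strand, all 47 members found there were on the plus strand, and the 6 others were treated alike. The members and lists were chosen with earlier results of these data known. Every member was accounted for, and those with a shared region at the start or before the next member's start were named with values, as were the extreme peaks, the unclustered protocadherins nearby and the leading gene of each list and of the left flank. The leading gene of the right flank is not reported here. Other members with peaks were added after their values were seen. The CTCF motif and the other letters searched were fixed with these lists. No test was run. Protein sequences were not analysed here. Alternatives covered peak thresholds, overlap, merging, windows, flanks and each replicate alone.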

Additional observations from a re-analysis of the deposited data

How the results depend on the processing

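No alternative put the shared regions per Mb of the protocadherin stretch above those of the flanks. With a −log10 q of at least 2, the shared regions in the stretch, the ratio to the flanks, the members with a shared region in the start window and those with one in the own segment all fell to 0, since fewer peaks entered. With the 50% of peaks of higher fold, they were 2, 0.306, 1 and 2. With a reciprocal overlap of 50% they were 3, 0.317, 1 and 2. Equal numbers of peaks gave a ratio of 0.183. With either replicate left out, peaks of the other stood in for shared regions: there were 12 to 27 in the stretch, a ratio of 0.226 to 0.248, 3 to 10 members by start window and 7 to 17 by own segment. A start window of 5 kb gave 5 members. Added after seeing the data, the ratio was 0.375 with the left flank only, 0.138 with the right flank only and 0.535 for the gamma cluster alone. The causes were not tested. The alternatives not printed here each stayed within 1.5 times the count reported or, for the ratio, within the spread between replicates (SD 0.0152). No paired analysis was possible because the result comes from no test and the inputs have no list of their own here. Depth is unknown, so a missing peak does not show that a region was not enriched.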

Other observations

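The genes PCDHAC2, PCDHB1, PCDHGC4 and PCDHGC5, are known for lacking the conserved promoter element of the other clustered protocadherins. The letters CGCT alone do occur upstream of the first 3. Replicate 1 had a peak in the first 3 kb of 4 of these 4 genes and of 8 of the 49 other members, replicate 2 in 2 of 4 and 3 of 49, and shared regions lay in 2 of 4 and 1 of 49. The shares of all protein-coding genes were 64.5%, 28.6% and 26.2%. The grouping was chosen after the values were seen and was not tested, and 3 of the 4 are C-type genes.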
